A study of Homo sapiens with 9 samples.

Results

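The RIG-I-like receptors and their signalling adaptors were described in the human lung cancer cell line H2030 (non-small cell type), through 10 genes chosen by name: DDX58, IFIH1, DHX58, MAVS, TRIM25, RNF135, TBK1, IKBKE, IRF3 and NLRX1. All 10 were among the 29972 genes of the deposited table, and all 10 were among the 13498 genes whose level allowed a test. Every library came from cells given siRNA at 20 nmol/L with a lipid transfection reagent, so the controls were transfected too. The control group received a pool of non-targeting siRNA duplexes. The siMENA11a group received a mix of 3 siRNAs that lie within exon 11a of ENAH, and the siMENA group received a commercial pool against ENAH as a whole. ENAH encodes the actin regulator hMENA, and hMENA11a is its isoform with exon 11a. By its title, the study concerns hMENA isoforms and the type I interferon signalling of the tumour cell itself. Each group had 3 libraries of a cell line culture, and nothing in the labels says that they came from separate cultures, so p-values measure the spread between libraries, which may be technical.

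RIG-I-like receptors are RNA helicases of the cytosol that recognise double-stranded or 5'-triphosphate RNA, as viruses make it. RIG-I (DDX58) and MDA5 (IFIH1) carry domains that, once uncovered and modified with ubiquitin chains, nucleate filaments of the mitochondrial adaptor MAVS. LGP2 (DHX58) lacks those domains and tunes the other receptors. MAVS recruits the kinases TBK1 and IKK-epsilon (IKBKE), which phosphorylate the transcription factor IRF3, and IRF3 then enters the nucleus to switch on type I interferon and other antiviral genes. Interferon in turn raises the receptors, so that they are both the entry to the pathway and its products.

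Values are TPM, a share of all transcripts that takes transcript length into account, divided by a size factor for each library and called scaled TPM. A gene was called higher or lower where limma's p, adjusted over all 13498 genes by Benjamini and Hochberg, was under 0.05. Log2 fold changes are differences of log2(scaled TPM + 0.5) with their standard errors, and they understate changes of low genes. Each library had 12258 to 12520 genes at 1 TPM or more. Small and structured RNAs took 57.1% to 59.1% of the TPM of a control library, where siMENA11a libraries had 62.8% to 64.8% and siMENA libraries 58.5% to 60.2%. Of all genes called in siMENA11a against control 50.2% were higher, but 28.6% in TPM as deposited and 63% in TPM rescaled to leave those RNAs out; in siMENA the shares were 47.9%, 63.4% and 69.1%, and between the knockdowns 50.3%, 24.3% and 45.2%. ENAH itself ranged from 43.2 to 44.7 scaled TPM over the controls, from 46.7 to 48.7 over siMENA11a and from 6.89 to 7.48 over siMENA. That value sums all isoforms, so it checks the label of siMENA but not that of siMENA11a. The cells had high KRT8 (97.4 ± 3.29 scaled TPM in control, SD, n = 3) and KRT18 (252.1 ± 6.43), keratins of simple epithelia. KRT7 averaged 9.93 over the controls, 15.8 over siMENA11a and 4.32 over siMENA, and the epithelial adhesion gene EPCAM 1.46, 2.90 and 3.10. KRT19 and the adhesion gene CDH1 stayed at or below 0.129 in every library. The 6 epithelial markers summed to 356 to 368 over the controls, 315 to 329 over siMENA11a and 312 to 331 over siMENA. Of 8 leukocyte markers, CD3E and MS4A1 were listed at 0 in all 9 libraries, and PTPRC reached at most 0.066. The summed level of the 8 ranged from 1.73 to 2.55 over the controls, 2.52 to 3.02 over siMENA11a and 1.19 to 1.69 over siMENA, with CD14 the highest of them in every library, and its part in the results on the receptors was not tested. Sums over 6 fibroblast markers were 8.83 to 9.41, 7.80 to 8.23 and 15.4 to 17.2 in the same order, and over 4 endothelial markers 0.513 to 0.672, 0.550 to 0.587 and 0.973 to 1.22. Most of each sum was 1 gene, COL1A1 (averages of 7.72, 6.38 and 14.6) and CDH5 (0.576, 0.535 and 1.06). The fibroblast marker LUM averaged 0.240 over the controls and 0.114 over siMENA, the other way.

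Promoter sequences are shown for DDX58, IFIH1 and TRIM25 because they are the members whose window held 1 of the 2 motifs given below. MAVS, the adaptor of both receptors, is shown as a window with neither. They are RefSeq windows on GRCh38.p14 from 250 bases before to 50 bases after the annotated start, written 5' to 3' on the strand of the gene. Capitals mark matches on either strand to GAAANNGAAA, the core of the interferon-stimulated response element bound by interferon regulatory factors, or to GAAANGAAA, the same repeat with 1 base between its GAAA units. The shorter spacing was added after the DDX58 window had been seen. The windows lie at chr9:32526147-32526446 (minus strand) for DDX58, listed there as RIGI, chr2:162318635-162318934 (minus) for IFIH1, chr17:56914000-56914299 (minus) for TRIM25 and chr20:3846584-3846883 (plus) for MAVS.
DDX58: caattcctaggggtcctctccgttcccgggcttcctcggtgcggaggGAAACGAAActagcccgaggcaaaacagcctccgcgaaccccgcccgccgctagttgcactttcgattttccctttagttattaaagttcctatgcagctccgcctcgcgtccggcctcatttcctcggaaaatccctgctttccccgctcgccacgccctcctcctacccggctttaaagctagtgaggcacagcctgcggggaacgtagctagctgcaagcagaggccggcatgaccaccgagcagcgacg
IFIH1: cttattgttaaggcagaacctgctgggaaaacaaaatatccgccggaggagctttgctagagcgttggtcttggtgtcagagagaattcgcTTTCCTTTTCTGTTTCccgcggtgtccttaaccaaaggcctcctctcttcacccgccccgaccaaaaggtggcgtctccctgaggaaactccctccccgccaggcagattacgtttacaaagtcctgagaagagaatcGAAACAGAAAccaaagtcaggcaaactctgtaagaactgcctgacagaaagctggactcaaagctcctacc
TRIM25: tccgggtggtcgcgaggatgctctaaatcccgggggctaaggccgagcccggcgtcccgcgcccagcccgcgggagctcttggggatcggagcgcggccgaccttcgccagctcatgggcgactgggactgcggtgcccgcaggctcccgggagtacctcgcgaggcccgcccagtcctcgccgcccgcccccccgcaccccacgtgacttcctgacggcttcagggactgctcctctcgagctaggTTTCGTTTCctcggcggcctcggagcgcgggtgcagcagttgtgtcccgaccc
MAVS: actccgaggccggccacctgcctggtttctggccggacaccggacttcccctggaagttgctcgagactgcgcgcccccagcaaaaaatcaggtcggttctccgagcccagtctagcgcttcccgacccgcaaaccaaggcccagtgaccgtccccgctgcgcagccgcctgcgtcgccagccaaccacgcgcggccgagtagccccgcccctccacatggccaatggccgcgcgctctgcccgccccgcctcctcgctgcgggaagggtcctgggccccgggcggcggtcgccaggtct

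The IFIH1 window held 3 matches to GAAANNGAAA, which began 159, 153 and 21 bases before the start, of which the first pair overlap and lie on the opposite strand. DDX58 held 1 match to GAAANGAAA on the strand of the gene, 203 bases before the start, and TRIM25 held 1 on the opposite strand, 3 bases before the start. Among all 35116 windows of the same length, 3.57% held the first motif and 3.12% held the second. The second was added with the DDX58 window already seen, so its match there is only a description. Of the 10 members, 7 were matched in the promoter table (not DHX58, RNF135 and IRF3), and MAVS, TBK1, IKBKE and NLRX1 held neither motif. A match describes letters and shows no binding.

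The receptors were the members that moved most after siRNA against exon 11a. DDX58, IFIH1 and DHX58 were all higher than in control, by 1.84-fold, 1.97-fold and 2.36-fold on the fitted scale. The kinase TBK1, the ubiquitin ligase TRIM25 and the mitochondrial regulator NLRX1 were higher by smaller amounts, whereas MAVS and IRF3 were lower. In all, 6 of 10 members were called higher and 2 lower, beside 27.9% and 27.7% of all tested genes. The members' median log2 fold change was 0.37, and that of all tested genes was 0.01. Part of this pattern was known when the members were chosen, so the counts are a description. In bulk libraries, a change in the share of responding cells and a change in RNA per cell cannot be told apart.

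**Figure D1:**
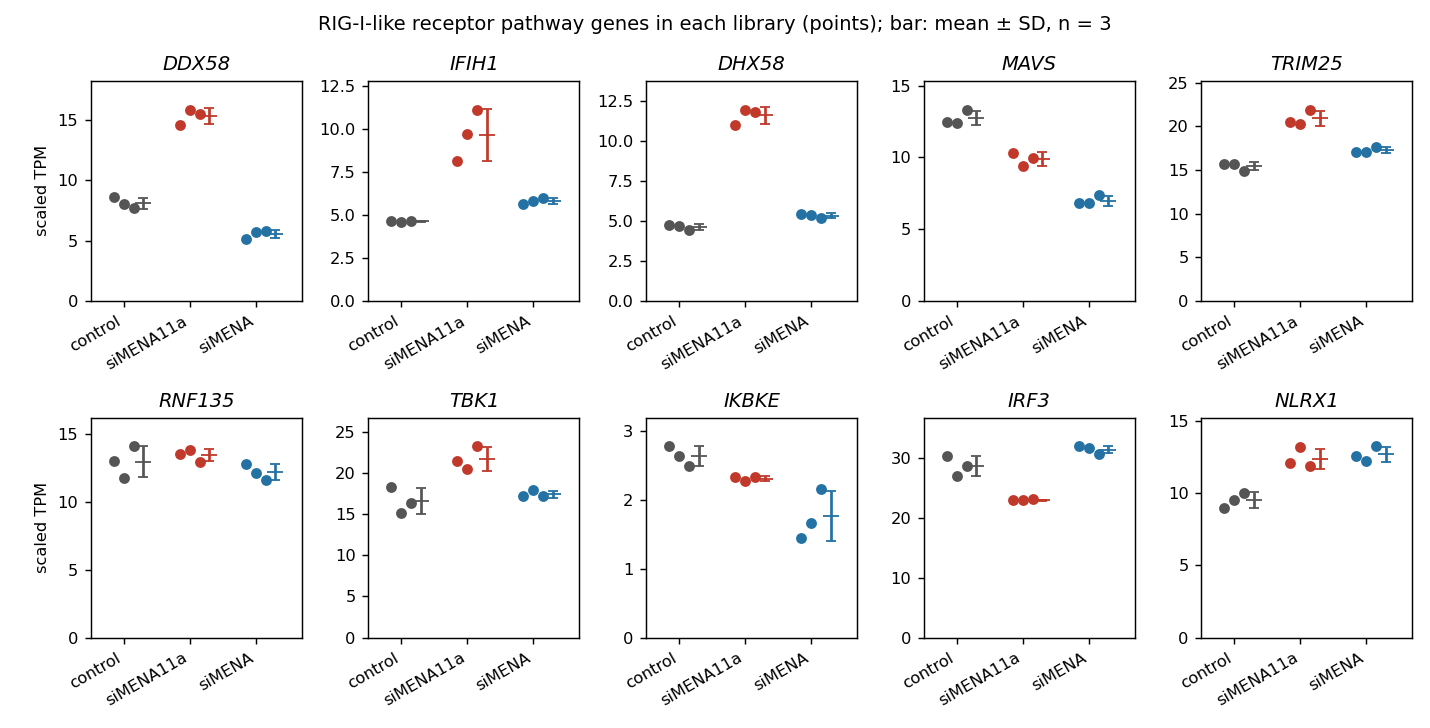
Scaled TPM (vertical axes, from 0) of the 10 genes in each of the 9 libraries (points, coloured by group) with the mean ± SD of each group (bars, n = 3). DDX58, IFIH1 and DHX58 stand apart in siMENA11a, MAVS is lowest in siMENA, and IRF3 is lowest in siMENA11a.

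DDX58, the RIG-I gene, lies on chromosome 9 at 32455705 to 32526324 (GENCODE 29 on GRCh38, minus strand). Its scaled TPM was 8.57, 8.01 and 7.69 in control libraries 1, 2 and 3, 14.6, 15.9 and 15.5 in siMENA11a, and 5.13, 5.68 and 5.76 in siMENA. The 3 groups did not overlap: every siMENA11a library lay above every control, and every siMENA library below. The rise in siMENA11a was 0.88 ± 0.060 on the log2 scale (limma adjusted p = 2.71e-06). In siMENA, DDX58 fell by 0.51 ± 0.060 (limma adjusted p = 0.000104). The direct difference between the knockdowns was 1.39 ± 0.060 (limma adjusted p = 1.09e-07).

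IFIH1, the MDA5 gene on chromosome 2 at 162267079 to 162318703 (minus strand), was at 4.62, 4.61 and 4.62 scaled TPM in control. It reached 8.11, 9.72 and 11.1 in siMENA11a and 5.61, 5.80 and 5.97 in siMENA. Controls were nearly identical, the siMENA libraries lay just above them, and the siMENA11a libraries were both the highest and the most spread. The log2 rise was 0.98 ± 0.093 in siMENA11a (limma adjusted p = 2.03e-05) and 0.30 ± 0.093 in siMENA (0.0243). The knockdowns differed by 0.68 ± 0.093 (0.000164). The smaller rise in siMENA was no longer called without any 1 of the controls or without siMENA 2 or 3, with log2 fold changes of 0.28 to 0.30 and limma adjusted p of 0.054 to 0.069.

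DHX58, the LGP2 gene on chromosome 17 at 42101404 to 42112733 (minus strand), had the largest fold change of the members in siMENA11a. Its scaled TPM was 4.75, 4.72 and 4.41 in control, 11.04, 11.98 and 11.84 in siMENA11a and 5.44, 5.39 and 5.16 in siMENA. The siMENA11a libraries were more than 5 scaled TPM above every other library. The log2 fold change was 1.24 ± 0.053 in siMENA11a (limma adjusted p = 1.68e-07) and 0.19 ± 0.053 in siMENA (0.0161), with 1.06 ± 0.053 between them (2.55e-07). The rise in siMENA was 0.15 without control 3 (limma adjusted p = 0.0501).

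The ligases that ubiquitinate RIG-I did not move alike. TRIM25 (chromosome 17, 56836387 to 56914080, minus strand) attaches ubiquitin chains to RIG-I. It was at 15.7, 15.7 and 14.9 scaled TPM in control, 20.5, 20.3 and 21.9 in siMENA11a and 17.05, 17.04 and 17.64 in siMENA. The groups did not overlap, with siMENA between the others. TRIM25 rose by 0.42 ± 0.042 on the log2 scale in siMENA11a (limma adjusted p = 2.58e-05) and by 0.15 ± 0.042 in siMENA (0.0129). The difference between the knockdowns was 0.27 ± 0.042 (0.000372), but 0.06 ± 0.068 in TPM as deposited (limma adjusted p = 0.482). On the annotation, TRIM25 overlaps the protein-coding genes DGKE (opposite strand) and C17orf67 (same strand), neither of which was called for siMENA11a against control (log2 fold changes 0.18 and 0.13, limma adjusted p of 0.211 and 0.538). DGKE was called lower in siMENA (-0.33, limma adjusted p = 0.0353) and differed by 0.51 between the knockdowns (0.00347), in the direction of TRIM25 there, so that the value of TRIM25 is uncertain.

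RNF135 (chromosome 17, 30968785 to 30999911, plus strand) encodes Riplet, another RIG-I ubiquitin ligase. Its scaled TPM was 13.0, 11.8 and 14.1 in control, 13.5, 13.8 and 12.9 in siMENA11a and 12.8, 12.2 and 11.6 in siMENA. Both knockdowns overlapped the control range, and RNF135 was the only member called in none of the 3 comparisons. The log2 fold change was 0.05 in siMENA11a (95% interval -0.09 to 0.20, limma adjusted p = 0.508) and -0.08 in siMENA (-0.23 to 0.06, adjusted p = 0.332), intervals that bound the change without showing that there was none.

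MAVS, the adaptor on the mitochondrial outer membrane, lies on chromosome 20 at 3846799 to 3876123 (plus strand). Its scaled TPM was 12.5, 12.4 and 13.3 in control, 10.3, 9.39 and 9.94 in siMENA11a, and 6.79, 6.79 and 7.38 in siMENA. The groups formed separate steps, with siMENA lowest. MAVS fell by 0.35 ± 0.054 in siMENA11a (limma adjusted p = 0.000436) and by 0.82 ± 0.054 in siMENA (2.70e-06) on the log2 scale. The knockdowns differed by 0.47 ± 0.054 (4.88e-05). Thus the adaptor was lower in both knockdowns while RIG-I was higher in one and lower in the other.

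Guide strands of siRNAs can pair with other transcripts through bases 2 to 8 alone. The 3' UTRs of the members (GENCODE 29, transcripts paired with the RefSeq identifiers of the table) were searched for the 57 words of 7 bases in the 63-base exon 11a. That exon lies on chromosome 1 at 225504991 to 225505053 of GRCh38. Words were ranked by the median log2 fold change in siMENA11a of the genes that carry them less that of the genes that do not, over 11066 genes with the members left out. CCAAGGA and CAAGGAA came first, with medians of -0.10 and -0.09 in carriers and 0.02 in the other genes for each. Since siMENA11a against control chose these words, the ranking is a description. One or both occurred in 22.3% of those genes and in 3 of 10 members, MAVS, TRIM25 and RNF135. The siRNA sequences were not available, so whether either word pairs with a guide strand is unknown. All 10 members held some of the 57 words. The counts ran from 1 in DHX58 and IRF3 to 26 in MAVS, whose 3' UTR was the longest searched. RNF135 held 9, and DDX58 and TRIM25 held 7 each. The sites of CCAAGGA and CAAGGAA are shown with flanking bases and the words in capitals.
MAVS: ggtcagaacCCAAGGAAgggagtgaga
TRIM25 first site: ccaagaggtcCCAAGGAttgggagcat
TRIM25 second site: ggctgtggggCAAGGAActctgccagg
RNF135 first site: ctggaggtgtCCAAGGAttcccgtaca
RNF135 second site: ggcacatggtCAAGGAAactgtccttg

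In MAVS both words overlap at base 4004 of a 3' UTR of 9976 bases, in TRIM25 they begin at bases 100 and 860 of 3791, and in RNF135 at bases 28 and 293 of 1223. The carriers differed in direction in siMENA11a, with MAVS lower, TRIM25 higher and RNF135 not called. In siMENA, whose siRNAs are another pool, carriers and other genes differed by 0.02 and -0.00 in median log2 fold change. Because the words were chosen on siMENA11a, a smaller difference in siMENA follows from that choice and is no contrast. Whether any siRNA acted on these transcripts was not tested.

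The kinases below MAVS also parted. TBK1 (chromosome 12, 64451880 to 64502108, plus strand) was at 18.3, 15.2 and 16.4 scaled TPM in control, 21.4, 20.5 and 23.3 in siMENA11a and 17.2, 17.9 and 17.2 in siMENA. Only the siMENA11a libraries lay outside the control range. TBK1 rose by 0.38 ± 0.068 on the log2 scale in siMENA11a (limma adjusted p = 0.00109). In siMENA its log2 fold change was 0.07 (95% interval -0.08 to 0.22, limma adjusted p = 0.418). With small and structured RNAs left out of the total it was called, at 0.19 (limma adjusted p = 0.0421). The median of all genes was then 0.12. The knockdowns differed by 0.31 ± 0.068 (0.00323), and by 0.10 ± 0.079 in TPM as deposited (limma adjusted p = 0.315).

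IKBKE (chromosome 1, 206470476 to 206496889, plus strand), the relative of TBK1 that is itself inducible, was the lowest member in every group. It was at 2.77, 2.63 and 2.49 scaled TPM in control, 2.32, 2.27 and 2.33 in siMENA11a, and 1.45, 1.67 and 2.16 in siMENA. The siMENA libraries were the lowest and the most spread, and no siMENA11a library reached the controls. It fell by 0.48 ± 0.11 in siMENA (limma adjusted p = 0.00551). In siMENA11a the log2 fold change was -0.16 (95% interval -0.41 to 0.09, limma adjusted p = 0.258). The difference of 0.33 ± 0.11 between the knockdowns (limma adjusted p = 0.0296) was not called when any 1 of siMENA11a 1, 2 or 3 or siMENA 1 or 2 was left out (0.23 to 0.34, adjusted p of 0.0589 to 0.0981), nor in TPM as deposited (0.15, 0.308), with quantile normalization (0.29, 0.0548), with no filter on low values (0.33, 0.0533) or in a fit of those 2 groups alone (0.32, 0.0555).

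IRF3 (chromosome 19, 49659569 to 49665875, minus strand), the transcription factor that the kinases activate, was the highest member in control. Its scaled TPM was 30.4, 27.0 and 28.7 in control, 23.0, 23.0 and 23.1 in siMENA11a and 32.0, 31.7 and 30.8 in siMENA. The siMENA11a libraries agreed closely and lay below all others, and the siMENA libraries lay just above the controls. IRF3 fell by 0.31 ± 0.043 in siMENA11a (limma adjusted p = 0.000224) and differed by -0.44 ± 0.043 between the knockdowns (1.57e-05). The rise in siMENA was 0.13 ± 0.043 (0.0272). It was not called without control 2 or 3 or siMENA 1 or 2, at 0.09 to 0.13 (limma adjusted p of 0.0567 to 0.092), nor in a fit of those 2 groups alone (0.14, 0.0506). IRF3 overlaps BCL2L12 on the opposite strand, and the use of strand in the counting is not given in the sources used here. BCL2L12 was called lower in siMENA11a too, at -0.22 ± 0.056 (limma adjusted p = 0.00822), so the values of the pair are uncertain. In siMENA and between the knockdowns BCL2L12 was not called, at -0.12 and -0.10 (limma adjusted p of 0.111 and 0.15). Antisense transcripts are also annotated over TRIM25, RNF135, TBK1 and IKBKE, and no annotated gene overlaps DDX58, IFIH1, DHX58, MAVS or NLRX1.

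NLRX1 (chromosome 11, 119166568 to 119184016, plus strand), a mitochondrial protein reported to restrain MAVS signalling, rose in both knockdowns. It was at 8.95, 9.53 and 10.0 scaled TPM in control, 12.1, 13.2 and 11.8 in siMENA11a and 12.5, 12.2 and 13.2 in siMENA. The knockdowns overlapped each other and lay above all controls. The log2 fold change was 0.36 ± 0.058 in siMENA11a (limma adjusted p = 0.000538) and 0.40 ± 0.058 in siMENA (0.000378). Between the knockdowns it was -0.04 (95% interval -0.17 to 0.09, limma adjusted p = 0.621). That last value depended on the scaling, with -0.25 ± 0.068 in TPM as deposited (limma adjusted p = 0.00927).

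**Figure D2:**
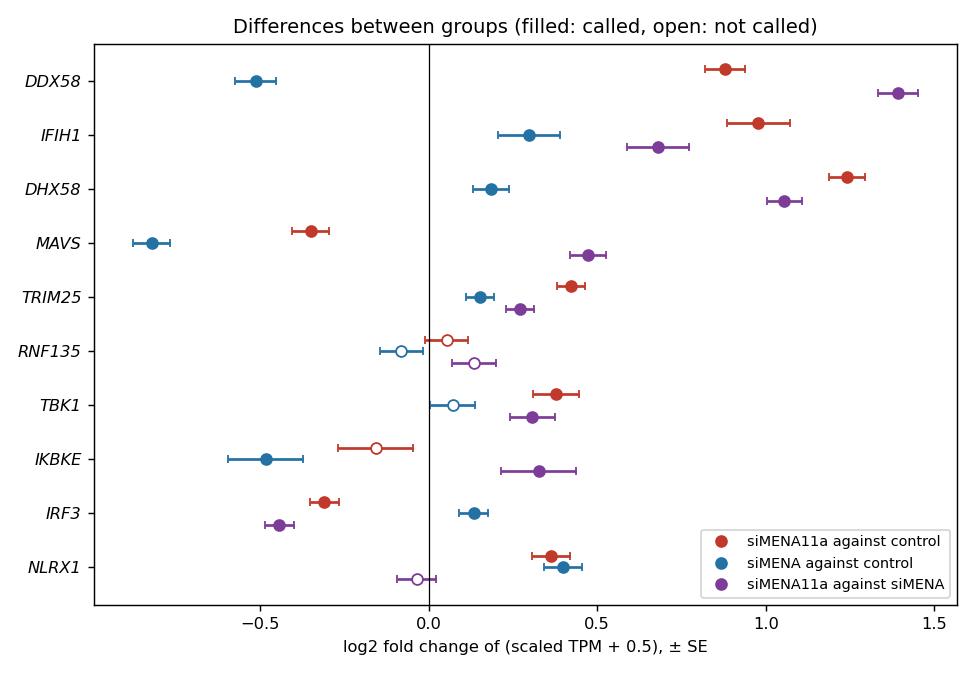
Log2 fold change of (scaled TPM + 0.5) with its standard error (horizontal axis) for each member in the 3 comparisons (colours); filled points were called and open points were not. DDX58 and IRF3 lie on opposite sides of 0 in the knockdowns, MAVS lies below 0 in both and NLRX1 above 0 in both.

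In siMENA against control, 5 of 10 members were called higher and 3 lower, beside 23.7% and 25.8% of all tested genes, and the members' median log2 fold change was 0.10 (0.01 over all genes). The higher members were IFIH1, DHX58, TRIM25, IRF3 and NLRX1, and the lower ones DDX58, MAVS and IKBKE. The count of higher members was 3 without control 2, 2 without control 3 and 3 without siMENA 2. Over all tested genes the higher ones were then 2785, 2922 and 2733. The comparisons with control share the control libraries, so their agreement for a gene is not counted as support. In siMENA11a against siMENA, 7 members were called higher and IRF3 alone lower, beside 29.5% and 29.2% of all tested genes (members' median 0.32, all genes 0.00). That comparison reuses the libraries of both knockdowns in the same fit, so it is no separate support either. The 7 were DDX58, IFIH1, DHX58, MAVS, TRIM25, TBK1 and IKBKE. In TPM as deposited the count was 4 higher and 2 lower, beside 2030 and 6321 of all tested genes. That scaling lowers the median of all genes to -0.20.

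Within a group, TPM allows levels of different members to be ordered. In control the order ran from IRF3 (28.7 scaled TPM) through TBK1 (16.6), TRIM25 (15.5), RNF135 (12.9), MAVS (12.7), NLRX1 (9.50), DDX58 (8.09), DHX58 (4.63) and IFIH1 (4.62) to IKBKE (2.63). Neighbours whose library ranges overlapped were TBK1 and TRIM25, RNF135 and MAVS, and DHX58 and IFIH1. In siMENA11a IRF3 (23.0), TBK1 (21.7) and TRIM25 (20.9) came next to each other with overlapping ranges. DDX58 (15.3) followed, apart from both neighbours, then RNF135 (13.4), NLRX1 (12.4) and DHX58 (11.6), whose ranges overlapped in turn. MAVS (9.88) and IFIH1 (9.65) overlapped too, and IKBKE (2.31) stayed lowest. In siMENA the order was IRF3 (31.5), then TBK1 (17.4) and TRIM25 (17.2), which overlapped, NLRX1 (12.7) and RNF135 (12.2), which overlapped, and MAVS (6.99). IFIH1 (5.79), DDX58 (5.52) and DHX58 (5.33) followed with overlapping ranges between neighbours, above IKBKE (1.76).

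Ratios of members within a library set members against each other with no effect of a library's size factor beyond the pseudocount. The log2 ratio of DDX58 to MAVS was -0.62 ± 0.12 (SD, n = 3) in control, 0.61 ± 0.12 in siMENA11a and -0.31 ± 0.069 in siMENA. RIG-I transcripts were therefore below those of its adaptor in every control and siMENA library and above them in every siMENA11a library. The ratio differed from control by 1.23 in siMENA11a and by 0.31 in siMENA, and each difference had p = 0.1 in a two-sided exact permutation test, the smallest p that 3 against 3 libraries allow (adjusted 0.133 over 12 tests of ratios). The ratio of IFIH1 to DDX58 was -0.75 ± 0.073 in control and -0.65 ± 0.18 in siMENA11a, which overlapped, against 0.06 ± 0.046 in siMENA. DHX58 to IFIH1 averaged 0.00 ± 0.054 over the controls, with 0.27 ± 0.17 after siMENA11a and -0.11 ± 0.077 after siMENA, and only the siMENA libraries overlapped the controls. IKBKE to TBK1 was -2.45 ± 0.11 over the controls, with -2.98 ± 0.076 after siMENA11a and -3.00 ± 0.24 after siMENA, so that TBK1 lay further above IKBKE in every knockdown library than in any control.

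**Figure D3:**
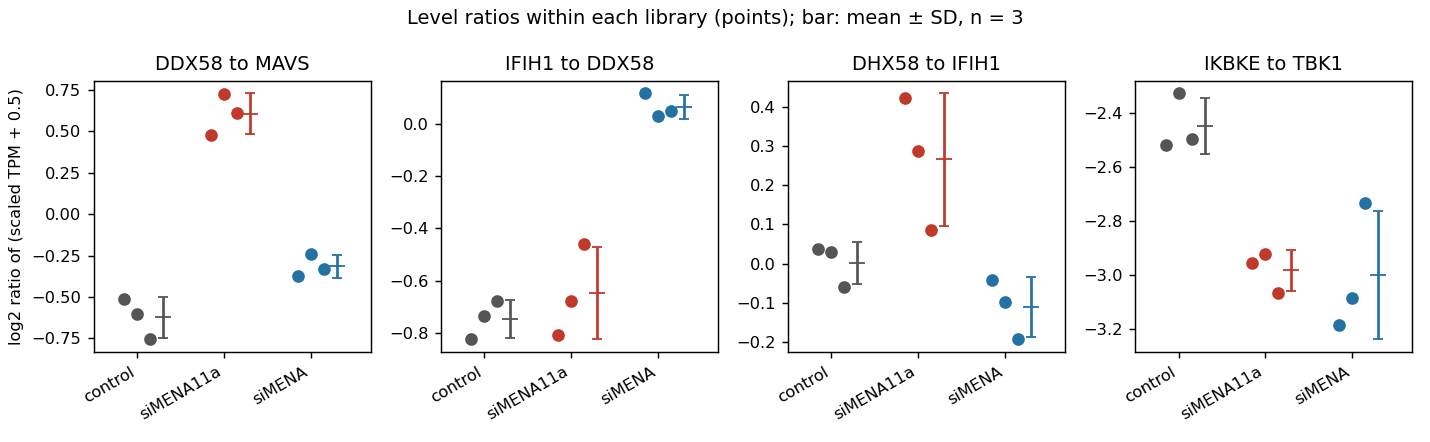
Log2 ratio of (scaled TPM + 0.5) of paired members in each library (points) with mean ± SD (bars, n = 3); each panel has its own vertical axis. The DDX58 to MAVS ratio is above 0 in siMENA11a alone, and the IFIH1 to DDX58 ratio is above 0 in siMENA alone.

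Other genes of the pathway came from 4 lists written from textbook roles. Of 15 genes that help activate the receptors, 6 were called higher in siMENA11a, 8 lower and 1 was not called, with a median log2 fold change of -0.26, beside 27.9% higher and 27.7% lower over all tested genes. DDX60, an interferon-induced helicase that promotes RIG-I signalling, went from 1.36 ± 0.096 to 6.03 ± 0.589 scaled TPM (SD, n = 3). The RIG-I ligase TRIM4 (0.53) and the RNA-binding co-receptor ZCCHC3 (0.39) rose as well. The ligase MEX3C (-0.82), the helicase DHX15 (-0.60) and PRKRA (-0.54), the PACT protein that assists RIG-I, were lower. In siMENA 3 were higher and 5 lower (median 0.01), beside 23.7% and 25.8% of all tested genes, among them the MDA5 ligase TRIM65 (0.40), TRIM4 (0.18) and the deubiquitinase USP4 (0.14), and DDX3X (-0.46), the 14-3-3 gene YWHAH (-0.40) and the CpG-binding antiviral gene ZC3HAV1 (-0.25). In TPM as deposited the higher genes counted 3 in siMENA11a, and 5 were higher and 3 lower in siMENA. Leaving small and structured RNAs out of the total gave 7 higher and 4 lower in siMENA. Which direction prevailed in siMENA thus changed with the scaling, as it did over all genes called. Of those in siMENA, 47.9% were higher with size factors, 63.4% as deposited and 69.1% with those RNAs left out. In siMENA11a the share fell from 50.2% to 28.6% as deposited.

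Of 24 genes that act with or below MAVS, 22 were tested, since STING (TMEM173) and TRIM31 were too low, with TMEM173 at no more than 0.40 TPM as deposited. In siMENA11a 8 were higher and 9 lower (median -0.07), beside 27.9% and 27.7% of all tested genes. IRF7, the interferon-induced partner of IRF3, rose from 6.25 ± 0.360 to 15.6 ± 1.13 scaled TPM (SD, n = 3), and CASP8 (0.68) and TRADD (0.49), components of the MAVS signalling complex, rose too. RIPK1, a kinase scaffold for NF-kappaB, went from 16.9 ± 0.131 to 10.2 ± 0.330 scaled TPM. The import receptor TOMM70A (-0.41), which links MAVS to TBK1, and the ubiquitin ligase TRAF2 (-0.57) were also lower. In siMENA 1 was higher, the TBK1-binding TBKBP1 (0.74), and 9 were lower (median -0.07), beside 23.7% and 25.8% of all tested genes. The lower ones with the smallest adjusted p were TRAF2 (-0.47), the kinase CHUK (-0.28) and the death-domain adaptor FADD (-0.23). In TPM as deposited the counts were 5 higher and 12 lower in siMENA11a, and 2 higher and 2 lower in siMENA. With small and structured RNAs left out of the total, they were 10 higher and 6 lower in siMENA11a. In siMENA they were then 8 higher and 2 lower. Which direction prevailed thus changed with the scaling in both knockdowns, as it did over all genes called. Of those in siMENA11a, 50.2% were higher with size factors, 28.6% in TPM as deposited and 63% with those RNAs left out. In siMENA the shares were 47.9%, 63.4% and 69.1%.

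Among 36 genes that restrain the pathway, 35 were tested, and 9 were higher and 15 lower in siMENA11a (median -0.07), beside 27.9% and 27.7% of all tested genes, so the share of higher genes was near that background. SIKE1, which holds TBK1 and IKK-epsilon inactive, went from 12.7 ± 0.476 to 6.38 ± 0.080 scaled TPM (SD, n = 3), or by -0.93 ± 0.045 in log2 (limma adjusted p = 3.16e-07). PCBP2 (-0.36), which leads MAVS to degradation, and TNIP1 (-0.53), a partner of the deubiquitinase A20, were lower as well. The ligases RBCK1 (0.49) and ITCH (0.17) and the TRAF3 deubiquitinase OTUD5 (0.39) were higher. In siMENA 11 were higher and 12 lower (median -0.03), beside 23.7% and 25.8%, with USP3 (0.64), which removes ubiquitin from the receptors, DAK (0.55), an inhibitor of MDA5, and TTLL12 (0.27) higher, and TNIP1 (-0.62), the MAVS-binding mitofusin MFN2 (-0.54) and the phosphatase PPM1A (-0.36) lower. The higher genes in siMENA11a were 2 in TPM as deposited, where the higher share of all genes called fell from 50.2% to 28.6%. The siMENA counts were 15 higher and 7 lower with small and structured RNAs left out of the total. That scaling raised the higher share of all genes called in siMENA from 47.9% to 69.1%.

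Of 12 genes that IRF3 can switch on directly, 6 reached the level for a test. All 6, CCL5, IFIT1, IFIT2, IFIT3, ISG15 and OASL, were called higher in siMENA11a, beside 27.9% of all tested genes, but CCL5 and OASL passed the filter only through that group, so the count is no support. IFIT1 averaged 1.72 ± 0.148 scaled TPM (SD, n = 3) over the controls, with 12.9 ± 1.48 after siMENA11a and 1.06 ± 0.121 after siMENA. In siMENA, IFIT1 (-0.51) and ISG15 (-0.33) were called lower. CCL5 was called too, at levels that would not have been tested without siMENA11a: 0.211, 0.864 and 0.611 scaled TPM in control and 0, 0.149 and 0.193 in siMENA. Of these 3 calls 1 was left without control 2, without siMENA 2 or with no filter on low values. The interferon genes were at or near 0: IFNL2 and IFNL3 were listed at 0 in all 9 libraries, and IFNB1 and IFNL1 above 0 in siMENA11a 2 alone, at 0.08 and 0.15 TPM as deposited.

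**Figure D4:**
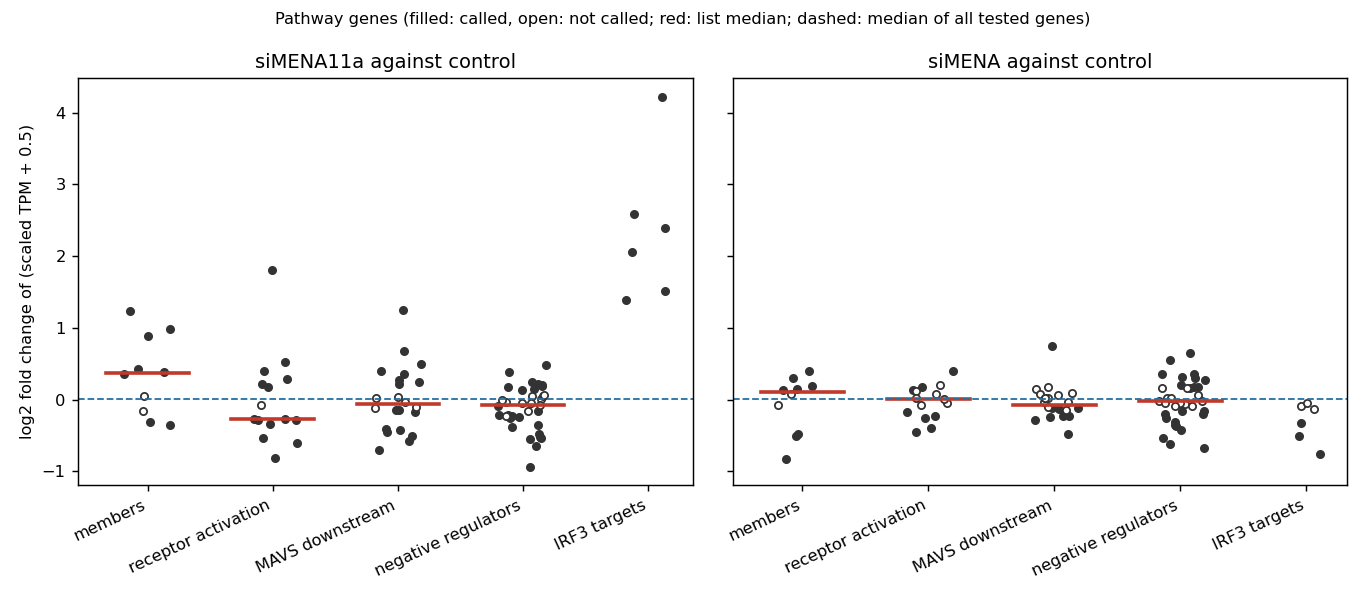
Log2 fold change of (scaled TPM + 0.5) of each tested gene (points, filled where called) in the members and the 4 pathway lists, for both knockdowns against control, with the median of each list except the IRF3 targets (red lines) and the median of all 13498 tested genes (dashed). Receptor, downstream and inhibitor lists spread to both sides of 0. The 6 tested IRF3 targets lie above 1 in siMENA11a, but CCL5 and OASL passed the filter only through that group, so this is no support.

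The genes with patterns closest to those of DDX58, IFIH1 and MAVS were found by the root mean square distance between log2 values over the 9 libraries, each gene centred on its mean, among 12472 other genes. For DDX58 they were TMOD3 (distance 0.056), BEX2 (0.061), SLC2A3 (0.073), SLC17A5 (0.075) and B2M (0.087), where the median gene lay at 0.60. TMOD3, which caps the pointed ends of actin filaments, averaged 62.1 scaled TPM over the controls, 111.6 over siMENA11a and 41.2 over siMENA. For IFIH1 they were BBS12 (0.087), ALPK1 (0.091), DDIT3 (0.094), KIAA1377 (0.098) and CTGF (0.11), with a median of 0.45 over all genes. For MAVS they were PTDSS1 (0.049), MTOR (0.051), SOD2 (0.056), IQGAP3 (0.064) and PTPLB (0.065), with a median of 0.39. No member was among the 5 nearest genes of these 3.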

How the data were processed

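Total RNA of 9 H2030 libraries was depleted of ribosomal RNA and sequenced as stranded read pairs, per the labels' protocols. The authors deposited 1 table of TPM for 29972 genes. Its name points to RSEM, while kallisto and GRCh37 stand without role or version in the submitters' processing notes. For aligner, settings and strand, the sources used here give nothing. TPM holds no read totals, so depth is unknown and counting error was not computed. Other columns of per-sample values numbered 0.

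Size factors (medians of ratios, 12341 genes averaging 1 TPM or more with no 0) were 0.995 to 1.04 for control libraries, 0.886 to 0.973 for siMENA11a and 1.06 to 1.09 for siMENA. The 13498 genes averaging 0.5 scaled TPM or more entered limma 3.58.1 (R 4.3.3) as log2(scaled TPM + 0.5), with 3 group means in 1 fit, eBayes with trend, no block, and Benjamini and Hochberg adjustment; the code was tested on simulated data. Ratios had exact permutation tests (scipy 1.17.1). Genes named are the members, up to 3 called genes of each list and direction by adjusted p, and the 5 genes nearest to DDX58, IFIH1 and MAVS; untested genes and the tested IRF3 targets were named after their values were seen. The members, lists and tests were chosen with earlier results of these data known, and the promoter and 3' UTR searches were added later. Alternatives were 3 other scalings, pseudocounts of 0.1 and 1, no filter and a filter at 5, robust eBayes, fits of 2 groups, a replicate block and leaving out each library.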

Additional observations from a re-analysis of the deposited data

Results flagged for a closer look

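DDX58 was called higher in siMENA11a and lower in siMENA, and the direct difference between the knockdowns was 1.39 ± 0.060 on the log2 scale (limma adjusted p = 1.09e-07), with every siMENA11a library above every siMENA library. IRF3 was called lower in siMENA11a and higher in siMENA, with a direct difference of -0.44 ± 0.043 (limma adjusted p = 1.57e-05) and no overlap between those groups. The rise of IRF3 in siMENA, at 0.13, was not called without control 2 (0.09) or 3 (0.13) or siMENA 1 (0.12) or 2 (0.13). Groups of 3 libraries were not searched for outlying values.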

How the results depend on the processing

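For siMENA11a against control, 6 members higher and 2 lower were called under each of the alternatives run. Over all tested genes, 3770 were higher and 3733 lower with size factors. In TPM as deposited 1965 of all tested genes were higher and 4904 lower. With small and structured RNAs left out of the total, 4878 were higher and 2870 lower. For siMENA against control, leaving out 1 library gave 2 to 5 members higher, beside 2712 to 3182 of all tested genes. For siMENA11a against siMENA, TPM as deposited gave 4 members higher and 2 lower, beside 2030 and 6321 of all tested genes. TRIM25, TBK1 and IKBKE lost their calls and NLRX1 gained one at -0.25. With that scaling the median log2 fold change over all genes was -0.11 in siMENA11a, 0.09 in siMENA and -0.20 between them. With size factors it was 0.01, 0.01 and 0.00, and with small and structured RNAs left out 0.09, 0.12 and -0.03. Of the members' log2 fold changes under alternatives, 543 kept their side of the threshold, 22 lost a call and 2 gained one. Those 2 were NLRX1 as above and TBK1 in siMENA against control, with small and structured RNAs left out. No called change reversed its direction, but uncalled ones could. RNF135 in siMENA11a against control ranged from -0.01 to 0.11 with 1 library left out. The ratio of IKBKE to TBK1 between the knockdowns, 0.02, was -0.03 with a pseudocount of 1 and -0.073 to 0.15 with 1 library left out. The cause of these changes was not tested. Libraries with the same number did not deviate together (correlations of -0.065 to 0.058), and those with different numbers had -0.064 to 0.10. The correlations show no pairing by number, but with 3 libraries a group they cannot exclude one. With the replicate number as a block, 7309, 6386 and 7732 genes were called. The members' counts then stayed at 6 and 2, 5 and 3, and 7 and 1. Values under 1 TPM, as for the interferon genes, are limited by a depth that is unknown.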

Other observations

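In siMENA11a, IFIH1 and several interferon-stimulated genes ranked the libraries in the same order. IFIH1 was at 8.11, 9.72 and 11.1 scaled TPM in siMENA11a 1, 2 and 3. CCL5 was at 14.3, 18.4 and 24.4, OASL at 1.91, 2.46 and 3.54, IFIT1 at 11.3, 13.2 and 14.2, ISG15 at 162, 202 and 219.8 and DDX60 at 5.39, 6.13 and 6.56 in the same libraries. DDX58 (14.6, 15.9 and 15.5), DHX58 (11.04, 11.98 and 11.84) and IRF7 (14.4, 16.6 and 15.8) were lowest in siMENA11a 1 as well but highest in siMENA11a 2. The share of small and structured RNAs was 64.8%, 64.5% and 62.8% in these libraries. These genes were picked after their values were seen, and with 3 libraries the ordering was not tested.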
